A study of Drosophila melanogaster with 24 samples.

Results

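Of the 15473 transcripts on the array, 33 (0.213%) declined at every stage, deeply and without a single dominant step, from wandering larvae of the last instar (L3) through 2, 6, 18, 24 and 36 h after puparium formation (APF). They were chosen by their stage means of log2 intensity alone: the mean had to fall at all 5 steps, the total fall from L3 to 36 h APF had to be at least 2 (a 4-fold decrease), and no single step was to make up more than 50% of that fall. Because the same values chose the transcripts and describe them, the falls below are a description, and no p-value is given for any of the 33. A stage-by-stage decline describes their means and not the single samples at every step, since none of the 33 had neighbouring stages free of overlap at all 5 steps.

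All samples were dissected wings of flies of 1 genotype, w1118;+;+, a Bloomington stock, raised at 25°C without crowding, with the RNA of 10 wings in each. L3, 2, 6, 18 and 24 h APF had 4 separately obtained samples each (numbered 1 to 4 at L3 and lettered afterwards), 36 h APF had 3, and a mixture of the RNA of 36 h samples B and D was run on 1 further array, which had no part in the choice. Titles and descriptions gave the stages, and for 14 arrays another field of the labels names a different one. The study states that L3, 2 h and 6 h samples still contained the presumptive notum and later ones did not, so tissue and stage cannot be told apart between 6 and 18 h APF.

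At metamorphosis the wing disc, a sheet of dividing epithelial cells, everts into a wing with a dorsal and a ventral layer, and its cells leave the cell cycle, take on vein, intervein or bristle fates, and later build hairs and cuticle. Pulses of the steroid hormone ecdysone drive these transitions. Bulk RNA does not separate less RNA per cell from fewer cells that carry it.

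The array identifies transcripts by FlyBase transcript number, and 2 of the 33 could be tied to genes through a Release 6 gene table. FBtr0076213 belongs to NaPi-III, which encodes a sodium-dependent phosphate transporter. FBtr0077747 is listed under both Rad1, whose protein is part of the checkpoint clamp loaded at damaged DNA, and Sws1, so that its level cannot be assigned to either gene. The other 31 had no name in the table and are given by number, without a role. For the same reason the defining markers of wing, notum and other tissues could not be looked up (0 of 31 matched), and a list of 115 pathway genes matched 1 transcript on the array and none of the 33.

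A deep fall was common on the array and a stepwise one was not. A total fall of at least 2 was found for 1253 transcripts (8.10%), and a lower mean at every stage for 165 (1.07%). Both held for 66, or 5.27% of the deep falls. The other 33 of these 66 lost more than 50% of their fall in a single step, which ran from 24 to 36 h APF in 32 and from 2 to 6 h APF in 1. Among the 1253 deep falls the condition most often broken was a lower mean at 18 h than at 6 h APF, missed by 856 (68.3%). It was the only condition of order broken in 643 (51.3%), while a lower mean at 36 h than at 24 h APF was missed by 77 (6.15%). The mirror rule, with every fall replaced by a rise, found 28 transcripts among 1144 rises of at least 2, and 622 of these rises (54.4%) were not higher at 18 h than at 6 h APF.

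The 33 transcripts began above the middle of the array and most ended below it. Their median log2 level was 11.40 at L3 (range 8.07 to 14.08), 10.65 at 2 h, 10.24 at 6 h, 10.08 at 18 h, 9.67 at 24 h and 7.96 at 36 h APF (range 5.08 to 11.71), whereas the median of all transcripts was 9.40 at L3 and 9.35 at 36 h APF. In ranks over the array, the median of the 33 went from percentile 66.3 to percentile 37.3. At L3 4 of the 33 lay under the array's median, and at 36 h APF 21 did. The total fall had a median of 2.79 on the log2 scale (2.04 to 4.63), or 6.90-fold (4.12-fold to 24.8-fold).

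**Figure D1:**
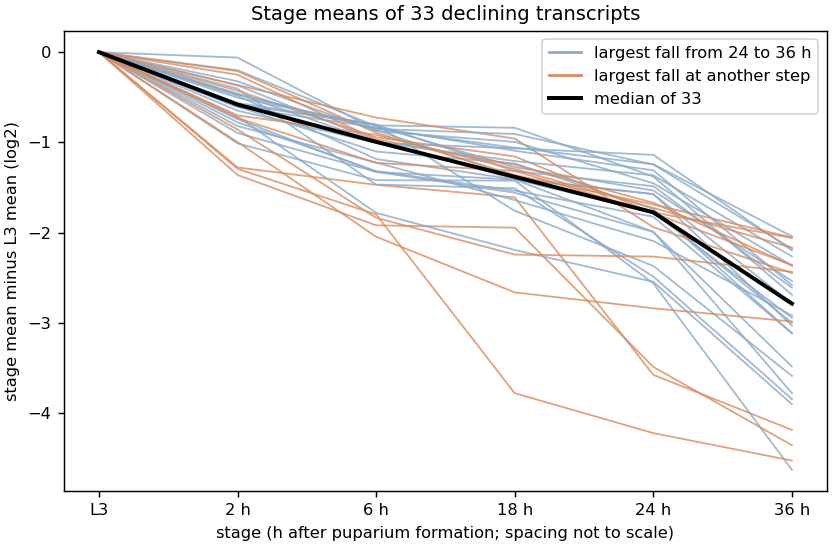
Stage means of the 33 declining transcripts, as log2 difference from the L3 mean (y axis) against stage (x axis, not to scale in time). Thin lines are single transcripts, blue for the 22 whose largest fall ran from 24 to 36 h APF and orange for the other 11, and the black line is their median, which ends 2.79 below L3. Blue lines bend down most after 24 h APF.

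The fall was not spread evenly. The last step, from 24 to 36 h APF, was the largest one in 22 of the 33, with a median fall of 1.003 on the log2 scale (0.15 to 2.07). The step from L3 to 2 h APF had a median of 0.58 (0.06 to 1.36), that from 2 to 6 h APF 0.51 (0.19 to 1.07), and that from 18 to 24 h APF 0.42 (0.02 to 1.97). From 6 to 18 h APF the median fall was 0.23 (0.01 to 1.98), the smallest of all 5 steps in 16 transcripts, and 8 of the 33 fell there by less than 0.1. Read as a share of each transcript's own fall, the 5 steps had medians of 20.4%, 17.4%, 9.54%, 15.3% and 39.2% in order of time.

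The steps cover unequal spans, and per hour the order differed. The step from L3 to 2 h APF was left out here, as the L3 samples have no hour after puparium formation. From 2 to 6 h APF the median fall was 0.127 per hour on the log2 scale, against 0.0193 from 6 to 18 h, 0.0702 from 18 to 24 h and 0.0836 from 24 to 36 h APF. The 2 to 6 h step was the steepest of these 4 per hour in 20 transcripts, and the 6 to 18 h step the shallowest in 25. In this measure, and from 2 h APF on, the decline was fast in the prepupa, slow across the interval in which the notum was lost from the samples, and faster again afterwards.

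**Figure D2:**
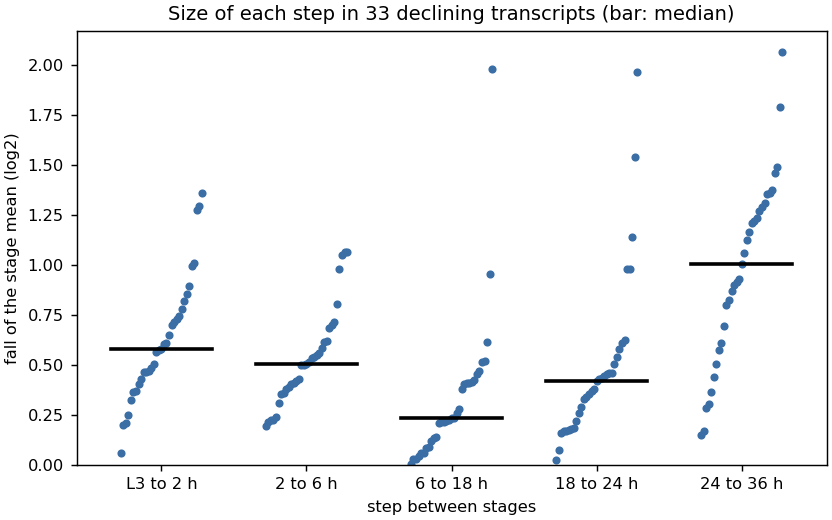
Fall of the stage mean on the log2 scale (y axis) at each of the 5 steps (x axis). Each point is 1 of the 33 declining transcripts, sorted within the step, and the bar is the median, from 0.23 for 6 to 18 h APF to 1.003 for 24 to 36 h APF.

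Set against the spread between samples, the first and the last steps passed the test in most of the 33, and that from 2 to 6 h APF in 16. The step from 18 to 24 h APF passed in 8, or 24.2%, above the 6.06% of the array. Only from 6 to 18 h APF was the share of the 33 below that of the array, at 4, or 12.1%, against 17.9%. Calls are those of a limma fit over all transcripts and stages, at a Benjamini-Hochberg adjusted p under 0.05, and they are shown beside the share of the whole array called lower at the same step, since the choice used these contrasts. From L3 to 2 h APF 21 of the 33 were called lower (10.5% of the array), and in 25 every 2 h sample lay under every L3 sample (16.8% of the array). Without sample D of 2 h APF 13 were called. From 2 to 6 h APF 16 were called lower (20.4% of the array), 10 without sample B of 6 h APF, and 20 had no overlap (20.5% of the array).

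From 6 to 18 h APF 4 of the 33 were called lower, a share below the 17.9% of the array, and 3 had no overlap (16.8% of the array). The 4 were FBtr0084829, FBtr0073972, FBtr0082318 and FBtr0076134. The count was 8 without sample B of 6 h APF, 2 without sample A of 6 h or C of 18 h APF, and 1 without sample D of 6 h APF. From 18 to 24 h APF 8 were called lower (6.06% of the array), 14 without sample C of 18 h APF, and 8 had no overlap (6.55% of the array).

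From 24 to 36 h APF 26 of the 33 were called lower (29.6% of the array) and 23 had no overlap (28.7% of the array). Over the whole course, all 33 were called lower at 36 h APF than at L3 (30.8% of the array) and had every 36 h sample under every L3 sample (31.8% of the array), as a fall of that size almost ensures. Counting steps, 2 transcripts were called lower at 4 of the 5, FBtr0072258 and FBtr0079369, 11 at 3, 15 at 2, 4 at 1 and FBtr0073764 at none. Of the whole array 1.34% were called lower at 4 steps, 4.75% at 3, 15.7% at 2, 33.4% at 1 and 44.8% at none.

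**Figure D3:**
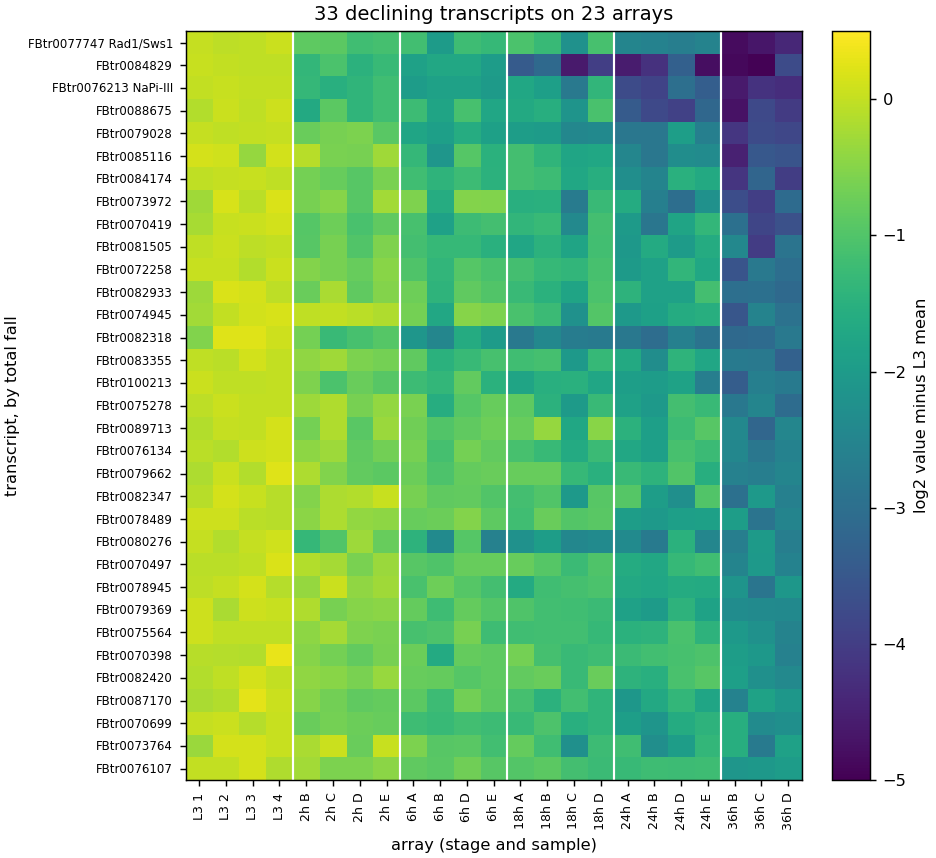
Log2 value minus the transcript's L3 mean (colour scale) for the 33 declining transcripts (y axis, by total fall, deepest at the top) on the 23 arrays of single samples (x axis, with white lines between stages). The columns darken from L3 to 36 h APF, and the column of sample C of 18 h APF is darker than its neighbours for many transcripts.

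The deepest fall was that of FBtr0077747, the transcript listed under Rad1 and Sws1. It had log2 values of 11.004, 10.94, 10.96 and 11.05 in the L3 samples, 10.13, 10.10, 9.81 and 9.87 at 2 h APF, and 9.82, 9.01, 9.78 and 9.68 at 6 h APF. At 18 h APF it stood at 9.94, 9.69, 8.76 and 9.88, at 24 h APF at 8.49, 8.43, 8.35 and 8.44, and at 36 h APF at 6.15, 6.32 and 6.61. The samples of 2, 6 and 18 h APF overlapped, while L3 lay above them all and both 24 and 36 h APF lay below all earlier samples. Its mean fell by 4.63 in all, 24.8-fold, with 2.07 of it after 24 h APF and 0.01 from 6 to 18 h APF.

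FBtr0084829 fell nearly as far, by 4.53, and in a different order. Its values were 10.96, 10.92, 10.90 and 10.89 at L3, 9.56, 9.87, 9.46 and 9.62 at 2 h APF, and 9.08, 9.23, 9.21 and 8.97 at 6 h APF. They were 7.50, 7.81, 6.31 and 6.93 at 18 h APF, 6.35, 6.71, 7.60 and 6.12 at 24 h APF, and 6.04, 5.96 and 7.18 at 36 h APF. The first 4 stages did not overlap and the last 3 did, so that nearly all of its separable fall was over by 18 h APF. It was the only one of the 33 whose largest step, 1.98, ran from 6 to 18 h APF, where the tissue dissected also changed.

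NaPi-III (FBtr0076213) fell by 4.36, or 20.5-fold. It read 11.99, 12.04, 12.0003 and 12.0016 at L3, 10.67, 10.48, 10.62 and 10.82 at 2 h APF, and 10.05, 10.15, 10.15 and 9.997 at 6 h APF. It read 10.29, 10.11, 9.22 and 10.63 at 18 h APF, 8.28, 8.12, 9.02 and 8.66 at 24 h APF, and 7.40, 7.82 and 7.74 at 36 h APF. Every step but 6 to 18 h APF was free of overlap. At 18 h APF samples A and D lay above all 6 h samples and sample C below all of them, and without sample C the 18 h mean was 10.34, above the 6 h mean of 10.09. Its mean was lower by 1.36, 0.56, 1.54 and 0.87 at the other steps in order, of which the step of 0.56, from 2 to 6 h APF, did not pass the limma test. Its place in a stepwise decline from 6 to 18 h APF depended on 1 array.

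FBtr0088675 had the fourth deepest fall, 4.19, most of it in 2 drops. It stood at 9.75, 9.93, 9.86 and 9.97 at L3, and between 7.72 and 9.001 in all 12 samples of 2, 6 and 18 h APF, which overlapped. It then read 6.45, 6.09, 5.95 and 6.70 at 24 h APF and 5.14, 6.09 and 5.83 at 36 h APF. All 24 h samples lay under all 18 h samples, and the 24 h and 36 h samples overlapped. The drops to 2 h and to 24 h APF measured 1.28 and 1.97, against 0.19 and 0.14 at the steps between and 0.61 after 24 h APF.

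The most even decline was that of FBtr0079369, whose largest step was 26.6% of its fall of 2.36. Its L3 values were 13.94, 13.67, 13.95 and 13.90, those of 2 h APF 13.72, 13.24, 13.38 and 13.42, and those of 6 h APF 13.06, 12.66, 13.07 and 12.90. They went on to 12.86, 12.70, 12.68 and 12.61 at 18 h, 12.01, 11.89, 12.41 and 12.03 at 24 h, and 11.54, 11.51 and 11.48 at 36 h APF. The only overlaps were 1 sample of 2 h APF above 1 of L3, and the 18 h samples with the lowest 6 h sample. Next in evenness were FBtr0100213 (28.3% in its largest step, means from 12.97 to 10.05), FBtr0078945 (30.3%, from 12.59 to 10.22) and FBtr0087170 (32.4%, from 13.88 to 11.71). All 4 stood above percentile 80 of the array at L3 and above percentile 56 at 36 h APF.

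FBtr0072258 was the brightest of the 33 at L3 and, with FBtr0079369, 1 of the pair called lower at 4 steps. It had 14.11, 14.12, 13.95 and 14.13 at L3, 13.56, 13.45, 13.29 and 13.59 at 2 h APF, and 13.07, 12.70, 13.12 and 13.00 at 6 h APF. It had 12.92, 12.77, 12.70 and 12.97 at 18 h APF, 12.08, 12.23, 12.69 and 12.35 at 24 h APF, and 10.50, 11.31 and 11.07 at 36 h APF. Only 6 and 18 h APF overlapped, where its mean fell by 0.13. Its total fall was 3.12, of which 1.38 came after 24 h APF, and it remained among the chosen transcripts whichever array was left out.

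At the other end, FBtr0073764 was called lower at no step and overlapped at each. Its values were 8.54, 9.03, 9.02 and 8.91 at L3, 8.69, 8.94, 8.12 and 8.92 at 2 h APF, and 8.30, 7.95, 7.98 and 7.71 at 6 h APF. Later samples had 8.08, 7.68, 6.64 and 7.66 at 18 h APF, 7.70, 6.598, 6.93 and 7.53 at 24 h APF, and 7.33, 6.11 and 7.03 at 36 h APF. Its SD between samples was 0.61, 0.51 and 0.63 (n = 4, 4 and 3) in the last 3 stages, wider than its steps of 0.33 to 0.47 to these stages, although its total fall of 2.05 separated L3 from 36 h APF.

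**Figure D4:**
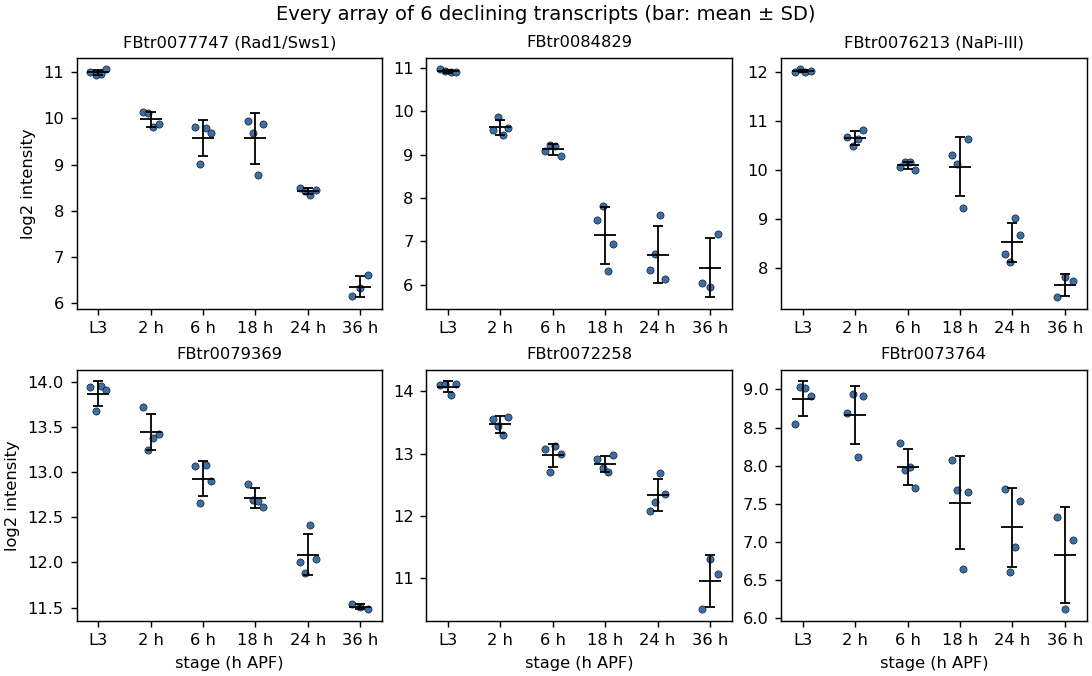
Log2 intensity (y axis, own scale in each panel) of 6 declining transcripts in every sample by stage (x axis). Points are single arrays and bars the mean ± SD (n = 4, and 3 at 36 h APF). FBtr0079369 and FBtr0072258 step down with little overlap, FBtr0077747 and NaPi-III hold level from 6 to 18 h APF, FBtr0084829 drops by 1.98 at 18 h APF, and FBtr0073764 overlaps at every step.

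By the step of their largest fall the 33 fell into unequal groups. FBtr0070699 and FBtr0087170 dropped most by 2 h APF, by 0.73 and 0.70, and had the shallow total falls of 2.06 and 2.17. FBtr0073764, FBtr0078945, FBtr0080276 and FBtr0082318 dropped most from 2 to 6 h APF. FBtr0076213, FBtr0078489, FBtr0079369 and FBtr0088675 dropped most from 18 to 24 h APF, by 1.54, 0.98, 0.63 and 1.97.

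The 22 whose largest drop came after 24 h APF had total falls from 2.04 to 4.63. After FBtr0077747 the deepest of them were FBtr0079028 (3.90), FBtr0085116 (3.85), FBtr0084174 (3.78), FBtr0073972 (3.59), FBtr0070419 (3.49), FBtr0081505 (3.12), FBtr0072258 (3.12) and FBtr0082933 (3.03). The other 13, FBtr0074945, FBtr0083355, FBtr0100213, FBtr0075278, FBtr0089713, FBtr0076134, FBtr0079662, FBtr0082347, FBtr0070497, FBtr0075564, FBtr0070398, FBtr0082420 and FBtr0076107, fell by 2.04 to 3.00. FBtr0074945 changed least at the start, with a drop of 0.06 by 2 h APF, and FBtr0079028 lost 1.07 from 2 to 6 h APF and a further 1.36 after 24 h APF.

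A few transcripts became dim. FBtr0082318 read 7.52, 8.31, 8.30 and 8.15 at L3, 7.41, 6.79, 6.97 and 7.13 at 2 h APF, and 5.96, 5.59, 6.46 and 6.09 at 6 h APF. Its samples of 18, 24 and 36 h APF then all lay between 4.96 and 5.64, and its means at these stages were under the lowest decile of the array (5.52, 5.61 and 5.62). FBtr0080276 fell from 8.3998 at L3 to 6.56 at 6 h APF and ended at 5.96, with steps of 0.02 and 0.17 after 18 h APF. At 36 h APF FBtr0085116, with a mean of 5.58, was also under the lowest decile, and FBtr0088675 stood at 5.69. No detection call comes with the values, so it is not known whether such levels were above background.

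At the thresholds the choice turned on small differences. FBtr0076107 and FBtr0073764 were just inside, with total falls of 2.04 and 2.05, while FBtr0088360 and FBtr0074019, which also declined at every stage, were left out at 1.99 each. FBtr0079662 and FBtr0089713 were kept with 49.3% and 48.7% of their fall in 1 step. FBtr0073841 and FBtr0077883 were left out with 50.2% each.

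Deep falls outside the 33 began at like levels and fell as far, but in another order. The 33 that declined at every stage with 1 step over 50% had a median L3 level of 11.07 and a median total fall of 2.66 on the log2 scale, and the 1187 not lower at every stage had 11.26 and 2.80. In the first set the median fall after 24 h APF was 1.72, and the earlier steps had medians of 0.35, 0.20, 0.15 and 0.26. In the 1187 the medians were 0.52, 0.62, 0.46 and 1.74 at the steps other than 6 to 18 h APF. At 6 to 18 h APF their median was a rise of 0.50, and limma called 555 of them higher and 178 lower. These differences follow from the conditions of the choice and were not tested.

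The spread of the 33 between samples was below that of the whole array at L3 and above it from 18 h APF, as was that of other deep falls. Their median SD between samples of a stage was 0.106 at L3 (0.151 over all transcripts), 0.194 at 2 h (0.237), 0.223 at 6 h (0.229), 0.284 at 18 h (0.248), 0.309 at 24 h (0.286) and 0.373 at 36 h APF (0.277). In the deep falls outside the 33 it was 0.121 at L3, 0.294 at 18 h, 0.328 at 24 h and 0.338 at 36 h APF. The 36 h values are over 3 samples and the others over 4. Pairs of the 33 moved together within stages to a small degree: the median correlation of their deviations from the stage means was 0.27 over 23 arrays, and 0.16 over 21 arrays without the pair of arrays described next. It was not computed for other transcripts, so it is not shown to be particular to the 33.

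Single arrays moved the whole set. In sample C of 18 h APF the 33 were lower than in the other 18 h samples by a median of 0.36 on the log2 scale, with 29 of 33 lower, and the median of the 33 levels was 9.33 there against 10.11 to 10.29 in the others. In sample B of 24 h APF they were lower by a median of 0.32 (27 of 33), in B of 6 h APF by 0.28 (28 of 33) and in D of 2 h APF by 0.21 (27 of 33). The median of all transcripts differed by 0.07 or less on each of these arrays. Deep falls outside the 33 were lower too, by 0.44 in C of 18 h, 0.36 in B of 24 h, 0.19 in B of 6 h and 0.22 in D of 2 h APF. These arrays are named for their low values, so each difference ran in the direction of the next stage. Other arrays moved the other way. The 33 were higher by a median of 0.25 in D of 24 h APF (7 of 33 lower), 0.22 in A of 18 h APF (6 lower) and 0.20 in D of 6 h APF (5 lower). The reason was not tested.

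**Figure D5:**
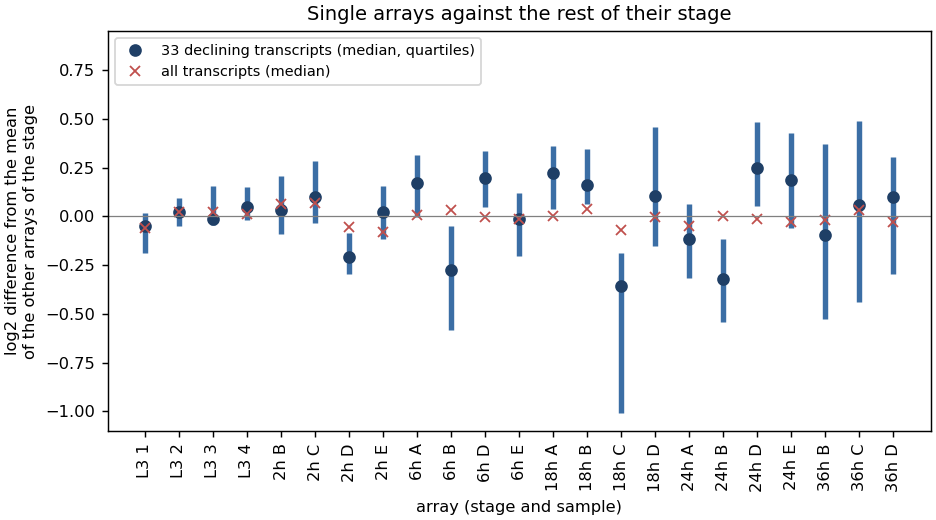
Difference of each array from the mean of the other arrays of its stage (y axis, log2) for the 33 declining transcripts (blue points are medians and bars join the lower and upper quartiles) and the median of all transcripts (red crosses), by array (x axis). Sample C of 18 h APF is lowest, at -0.36, and B of 24 h APF follows at -0.32, while the crosses stay close to 0.

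Sample C of 18 h APF decided the place of 9 transcripts. Without it the rule chose 27 transcripts, 24 of them among the 33, and the median fall of the 33 from 6 to 18 h APF was 0.19. The 9 that left all had an 18 h mean above the 6 h mean once C was set aside. They were FBtr0089713 (a rise of 0.27), FBtr0077747 (0.26), FBtr0076213, the NaPi-III transcript (0.25), and FBtr0082420, FBtr0070419, FBtr0085116, FBtr0088675, FBtr0084174 and FBtr0070398 (0.01 to 0.06). Thus 3 of the 4 deepest falls, both transcripts with a gene name among them, were chosen only with this array.

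Leaving out each of the 23 arrays in turn gave from 27 to 43 chosen transcripts. The highest number was reached without sample B of 6 h APF, which kept 32 of the 33 and added 11. Only 15 of the 33 were chosen in all 23 cases: FBtr0070497, FBtr0072258, FBtr0074945, FBtr0075564, FBtr0076134, FBtr0078489, FBtr0078945, FBtr0079028, FBtr0079369, FBtr0081505, FBtr0082318, FBtr0082347, FBtr0083355, FBtr0084829 and FBtr0100213. This set held the most even decline and the brightest transcript but only 1 of the 4 deepest.

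The left-out arrays also gave values that had no part in the choice. Transcripts were chosen without an array, and the array was then placed against the mean of the stage before and the mean of the stage after. The share of transcripts that lay between them, or on the right side of the single neighbour at L3 and 36 h APF, was 91.4% to 100% for the L3 arrays, 81.1% to 94.1% for 2 h, 39.5% to 83.9% for 6 h, 51.9% to 62.9% for 18 h, 60% to 88.2% for 24 h and 88.6% to 93.9% for 36 h APF. Over all transcripts the same share was 50.2% to 55% for the L3 arrays, 20.6% to 23.7% for 2 h, 10.9% to 12.2% for 6 h, 9.84% to 13.6% for 18 h, 18.6% to 26.7% for 24 h and 52.2% to 56.5% for 36 h APF. At 2 to 24 h APF a transcript could count only if the mean before lay above the mean after. The choice ensured this for the chosen transcripts and not for the rest, so part of the gap there was fixed in advance. At L3 and 36 h APF the left-out array was set against a 2 h or 24 h mean that the choice had used. The choice also required a fall at these steps, which 54.3% and 53.3% of all transcripts had with every array in. Part of the gap at L3 and 36 h APF was therefore fixed in advance too. For samples A, B and D of 18 h APF, 13 to 16 transcripts were not below the 6 h mean. For sample C only 1 was not below it, but 12 were not above the 24 h mean.

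The array of the 36 h mixture was not used in the choice, although its RNA came from a pair of samples that were. On it all 33 lay under every L3 sample, 31 lay under the 24 h mean, and 25 lay under every 24 h sample. The shares of the whole array that did so were not counted, so these numbers have no background to be read against. It read lower than the mean of the 36 h samples by a median of 0.26 on the log2 scale, against a difference of 0.02 upward over all transcripts, and 13 of the 33 lay within the range of the 36 h samples. Samples B and D, whose RNA was mixed, differed from that mean by medians of -0.06 and 0.07 in the 33. NaPi-III stood at 6.78 on the mixture, under both B (7.40) and D (7.74), and FBtr0077747 at 6.37, between B (6.15) and D (6.61). As the mixture holds 36 h RNA only, its lower readings are not a further decline, and their reason was not tested.

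The arrays lay on 6 slides, and the falls could be read within a slide where it held neighbouring stages. From L3 to 2 h APF 32 of the 33 were lower on each of 2 slides, from 2 to 6 h APF 30, 32 and 33 on 3 slides, from 18 to 24 h APF 32 and 27 on 2 slides, and from 24 to 36 h APF 29, 31 and 31 on 3 slides. These are the values that the choice used, and over all slides and neighbouring stages 37.7% to 62.6% of the whole array was lower. From 6 to 18 h APF the numbers were 27 and 26 on 2 slides and 13 on the last, where the median of the 33 rose by 0.05 on the log2 scale. Of the whole array 47.1%, 45% and 47.7% was lower on these slides. The last slide held sample B of 6 h APF, in which the 33 were low by a median of 0.28. It also held B of 18 h APF, in which they were high by 0.16. Between L3 and 36 h APF all 33 were lower on both slides that held the pair, with a median difference of -2.68 on each. The required total fall of at least 2 almost ensures this. Of the whole array 51.5% and 46.7% was lower on these slides.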

How the data were processed

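RNA of dissected w1118 wings was labelled with Cy3 and hybridized to 24 NimbleGen arrays. The authors scanned the arrays, quantile normalized them together with NimbleScan and summarised 3 to 5 probes per transcript by RMA into the deposited linear intensity, from 16.8 to 64238. Neither the genome build nor the annotation release, nor a version of RMA, is given in the sources used here, and no coordinates are printed. A deposited table of the series holds log2 values, in which the 4 L3 columns are interchanged, and served as an alternative. This normalization gives all arrays similar distributions, so a change in total RNA cannot be seen, and dim values are compressed. The standard errors per intensity in the files were not used.

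Log2 was taken of the deposited intensities of the 23 arrays of single samples (array medians 9.28 to 9.58). Stage means were put through the rule, and all 15473 transcripts were fitted with limma 3.58.1 (lmFit and eBayes) in R 4.3.3, with 1 mean per stage. Benjamini-Hochberg adjusted p under 0.05 was a call. No transcript was filtered out, and all 33 members passed into the fit, 26 with 5 probes and 7 with 4. The fit and the rule were tested on simulated data. Samples are described as independent, and their number limits the precision. Sample letters were not used as pairs in this fit. Deviations of same-lettered samples correlated from -0.55 to 0.36, above 0.1 in 7 of 29 pairs. Pairs with different letters were not compared, so whether the letters mark a pairing was not settled.

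The members, the lists and the comparisons were chosen with earlier results of these data known. Named transcripts were those tied to a gene, the 4 of deepest fall, the 4 of most even decline, the 2 brightest at L3 and those nearest each threshold. Others were named after their values were seen. Marker and pathway lists, promoter motifs and sequences need names or sequences of these transcripts and were not analysed here. L3 sample 3 has an incomplete slide number and was taken to lie on slide 6. Figures were drawn with matplotlib 3.10.9.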

Additional observations from a re-analysis of the deposited data

Results flagged for a closer look

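Among the values given for named transcripts, 3 of 70 groups of 4 samples held a sample far from its fellows by Dixon's criterion, and chance marks about 1 in 20 such groups. NaPi-III (FBtr0076213) was 12.04 in L3 2 on the log2 scale and 11.9946 to 12.0016 in the other L3 samples, a gap of little size. FBtr0072258 was 13.95 in L3 3 and 14.11 to 14.13 in the other L3 samples. FBtr0100213 was 10.31 in sample E of 24 h APF and 11.01 to 11.13 in the other 24 h samples.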

How the results depend on the processing

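The number of declining transcripts, 33, was 53 with a total fall of at least 1.5, 12 with at least 3, 16 with no step over 40% of the fall (a share of 0.4) and 50 with 0.6. It was 27 to 43 with single arrays left out, 43 under cyclic loess (25 of the 33 among them), 39 from stage medians (25), 38 with array medians centred again (30), 34 with slide as a block (27) and 31 with the pooled array counted (30). The median total fall was 2.73 to 2.81 with single arrays left out.

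Of the 33, the number called lower by limma with single arrays left out was 13 to 22 from L3 to 2 h, 10 to 19 from 2 to 6 h, 1 to 8 from 6 to 18 h, 6 to 14 from 18 to 24 h and 26 to 27 from 24 to 36 h APF. From L3 to 2 h it was 11 at an adjusted p under 0.01. From 2 to 6 h it was 10 under cyclic loess, 9 with a change over 1.5-fold required and 9 at an adjusted p under 0.01. From 6 to 18 h it was 8 under cyclic loess, 2 with transcripts of a mean under the median left out (fewer were tested), 1 at an adjusted p under 0.01, and 2 without C of 18 h and B of 24 h APF, an alternative chosen after seeing the data that left 25 chosen transcripts (21 of the 33). With the replicate block, for which L3 was left out because its samples carry no letters, 12, 2, 6 and 23 were called from 2 to 6 h onward, against 13, 4, 6 and 26 in the same samples without the block. From L3 to 36 h APF 19 were called with transcripts of a mean under the median left out, as 14 of the 33 were then not tested. No total fall changed sign, but falls chosen to be at least 2 left little room for that, and counts have no sign. The signs of single steps were not among these results. Without sample C of 18 h APF, 9 of the 33 rose from 6 to 18 h APF. Among 390 further values of single total falls 9 moved by more than the spread between samples, 6 of them under cyclic loess. A total fall uses only the L3 and 36 h means, so many of the 390 could not move, such as those without a 2, 6, 18 or 24 h array. Where no other cause is stated, the cause was not tested. Levels near 5 on the log2 scale may not be above background, which limits the late steps of the dimmest transcripts.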
